A study of Mus musculus with 26 samples.

Results

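Wild-type (WT) retinal cells from newborn mice were compared by whether they held transcript of Hes1, a repressor that Notch signalling switches on. A WT cell counted as Hes1-positive when the signal of its Hes1 probe set reached the 90th percentile of all probe sets on its own array, array controls left out. This made 6 of the 13 WT cells Hes1-positive (cells 2, 3, 4, 5, 6 and 9) and left 7 Hes1-negative (cells 1, 7, 8, 10, 11, 12 and 13), out of 26 cells in the series. Hes1-negative here means below that threshold, which does not show that the transcript was absent. The members were thus chosen by their own Hes1 signal, and Hes1 itself is described without being read as a result. All 13 WT cells came from retinas of C57BL/6 mice homozygous for a floxed Notch1 allele, which stays intact without Cre. At postnatal day 0 the retinas received, by electroporation in the living animal, a plasmid that makes GFP from the broadly active CAG promoter, and they were collected at postnatal day 3. Single GFP-positive cells were picked by hand, and each was amplified and put on 1 Affymetrix mouse array. The cells therefore stand only for retinal cells that took up plasmid and that were chosen under a microscope. The other 13 cells of the series also received Cre and had Notch1 deleted (N1-CKO), and 1 of them passed the same Hes1 threshold. The labels name no animal or litter, so each group of cells is 1 sample, no p-value was computed, and each SD is a spread between cells.

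Notch receptors are cut when they meet a ligand on a neighbouring cell, and the freed inner part joins the DNA-binding protein RBPJ in the nucleus. Together they switch on Hes1, Hes5 and the Hey genes, whose proteins repress the proneural genes that drive neurons to form. In the postnatal retina, cells with active Notch are dividing progenitors or young Müller glia, the radial support cells of the retina. Cells in which the pathway is off leave the cell cycle and become rods, bipolar cells or late amacrine cells. Hes1 protein and mRNA are known in other mouse cells to go up and down in short cycles.

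The arrays fell into 2 sets by the signal of the 18S ribosomal RNA control, and the Hes1 groups were unevenly spread over them. Of the Hes1-positive cells, 5 lay in the low 18S set and only cell 9 in the high 18S set. Of the Hes1-negative cells, 3 (cells 1, 7 and 13) lay in the low set and 4 (cells 8, 10, 11 and 12) in the high set. Cell 9 stood apart from its group: its log2 profile correlated with those of the other Hes1-positive cells with a median r of 0.321, against a median of 0.582 among those 5 cells, as a description over probe sets. With the 4 Hes1-negative cells of the high set its median r was 0.307, so it was close to neither. The number of probe sets at or above a common signal of 1230 had a median of 5360.5 in Hes1-positive cells (2570, in cell 9, to 6042) and of 4201 in Hes1-negative cells (3582 to 6250). The 3' to 5' ratio of the Gapdh control, a gauge of cDNA length, had medians of 1.90 in Hes1-positive and 1.79 in Hes1-negative cells, and that of Actb had medians of 2.68 (1.41 to 54.8) and 3.88 (1.46 to 21.2). Among low 18S arrays both medians were lower in Hes1-positive cells, at 1.70 against 2.55 in Hes1-negative cells for Gapdh and at 3.29 against 12.2 for Actb. Differences within the low 18S set, with 5 against 3 cells and without cell 9, are therefore given for the gene lists, and for a named gene wherever the sign turned there or the size fell by over 1.5 times. The part of the array set and of these ratios in each difference was not tested.

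The array holds 1 probe set for Hes1. Its signal, an intensity on the authors' linear scale, was 457 at the lowest, 3409 at the median and 6818 at the highest in Hes1-positive cells, against 4.12, 199 and 793 in Hes1-negative cells. The signals overlapped, because the threshold was set on each array: cell 1, which is Hes1-negative, had 793 against a threshold of 2233 on its array, and cell 9, which is Hes1-positive, had 457 against a threshold of 414. Just inside the threshold lay cells 2, 9 and 3, at percentiles 90.4, 91.5 and 91.8 of their arrays. Just outside lay cells 12 and 10, at percentiles 88.3 and 87.6. Cells 4 and 6, at percentiles 96.2 and 96.6, and cells 7 and 8, at percentiles 35.9 and 36.1, marked the far ends.

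**Figure D1:**
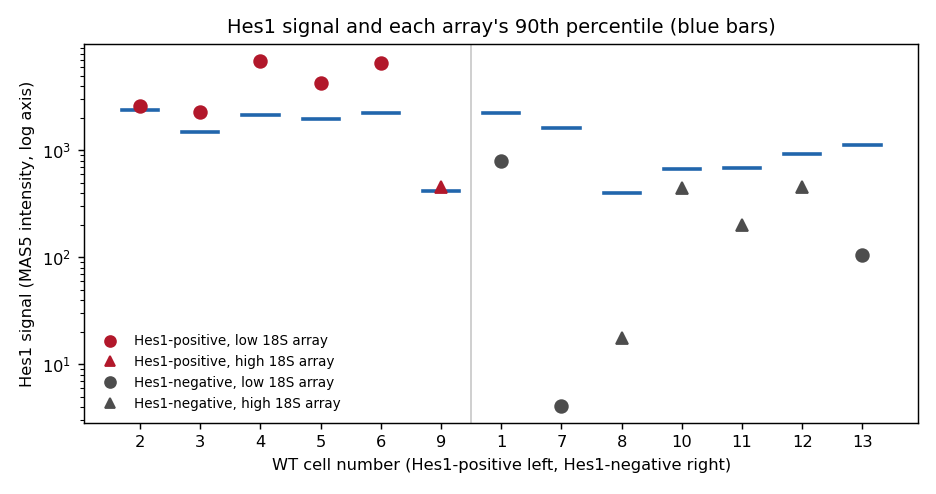
Hes1 signal (MAS5 intensity, log axis) in each of the 6 Hes1-positive (red, left) and 7 Hes1-negative (grey, right) WT cells. Blue bars mark the 90th percentile of each cell's own array, and triangles mark arrays of the high 18S set. Cells 2 and 9 lie just above their bars, and cells 7 and 8 lie far below theirs.

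Across genes, a difference is the mean log2 signal of Hes1-positive cells minus that of Hes1-negative cells, with signals below 25 raised to 25, a log2 of 4.64. It mixes the number of cells that held a transcript with its level in them. A gene is called past the fold at a difference of at least 3 in either direction, which is 8-fold, among the 4908 genes (Hes1 left out) detected in at least 3 of the 13 WT cells. Detection follows the rule used for Hes1. A gene detected in few cells passes this filter through the group where it is bright, so each list is read beside the share of all genes that passed the same filter. Of these genes, 412 (8.39%) were past the fold higher in Hes1-positive cells and 166 (3.38%) lower, and the median difference of all genes was 0.36. A difference above 0 was held by 58% of genes. In the low 18S set alone, 755 (15.4%) were past the fold higher and 391 (7.97%) lower, with 5 against 3 cells. Of the 412 genes past the fold higher, 410 kept their sign in the low 18S set, and 285 kept it in cell 9 set against the 4 Hes1-negative cells of the high set. Of the 166 lower, 165 and 153 did. These sets overlap with the cells that made the calls.

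The other effectors that Notch is known to switch on were higher on average in Hes1-positive cells, with large spreads. Of 9 Hes, Hey and Nrarp genes measured besides Hes1, 6 passed the detection filter. Of these 5 were higher and 1 was lower, beside 58% of all genes higher. Their median difference was 1.85, against 0.36 over all genes. Hes5 and Nrarp were past the fold, 2 of 6, against the background of 8.39%. In the low 18S set the median was 2.99. Set against the 4 Hes1-negative cells of the high set, cell 9 had a median of -2.66, so the direction over these genes came from the other 5 cells.

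Hes5, a repressor related to Hes1 and a standard readout of Notch, had log2 signals of 5.38 at the lowest, 13.20 at the median and 14.66 at the highest in Hes1-positive cells, against 4.64, 8.39 and 13.62 in Hes1-negative cells. It was detected in 5 of 6 Hes1-positive cells (83.3%, exact 95% interval 35.9 to 99.6) and in 3 of 7 Hes1-negative cells (42.9%, 9.90 to 81.6), and cell 9 was the positive cell without it. Its means were 12.17 ± 3.41 and 9.03 ± 3.03 (SD, n = 6 and 7), a difference of 3.14 that lies within the larger SD. Nrarp, a target that feeds back to dampen Notch, was the member of the family that came nearest to a clean split. Its log2 signals were 6.71, 10.88 and 12.49 (lowest, median, highest) in Hes1-positive cells, against 5.32, 7.43 and 8.72 in Hes1-negative cells. Detection was in 3 Hes1-positive cells and in none of the 7 Hes1-negative cells, which for 0 of 7 leaves an exact upper limit of 41.0%. Cells 4 and 9 overlapped with the Hes1-negative cells, and the difference of 3.21 was larger than either SD (2.53 and 1.44), as held for 5.6% of all genes in this direction.

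The Hey genes did not split the groups in the same way. Hey2, a repressor of the same family, was detected in 3 Hes1-positive cells (4, 5 and 6) and in no Hes1-negative cell, with a difference of 2.19. Heyl was detected in 4 Hes1-positive and 2 Hes1-negative cells, with a difference of 1.50 over all cells and of -0.45 in the low 18S set. The other probe sets of Heyl differed by -0.65 and -1.32, each detected in no Hes1-positive cell and 1 Hes1-negative cell. Hey1 was detected in 3 cells of each group, with means of 8.92 ± 3.64 in Hes1-positive and 8.44 ± 3.32 in Hes1-negative cells. Hey1 transcript therefore did not separate the cells: in the low 18S set it was detected in 3 Hes1-positive cells and no Hes1-negative cell, and in the high set in 3 of the 4 Hes1-negative cells and not in cell 9. Hes5 and Hey1 were both detected in 3 Hes1-positive cells and 1 Hes1-negative cell, and both missing in 1 and 2 cells. The Hes1-negative group thus holds cells with other Notch effectors, and the groups are named here by Hes1 alone. Hes6, a relative known to oppose Hes1 and to favour neurons, was detected in 4 Hes1-positive and 6 Hes1-negative cells, with a difference of -1.03 over all cells and of -0.34 in the low 18S set.

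**Figure D2:**
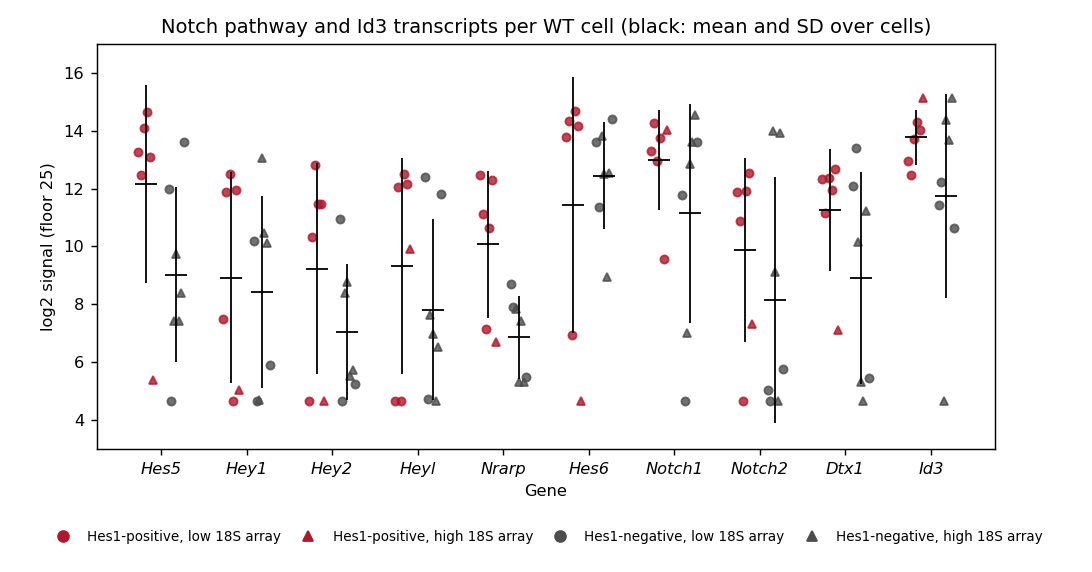
Log2 signal (floor 25) of 9 genes of the Notch pathway and of Id3 in each WT cell, Hes1-positive cells in red to the left and Hes1-negative cells in grey to the right of each gene. Black lines give the mean and SD over 6 and 7 cells, and triangles mark high 18S arrays. Hes5 and Nrarp are bright in most red points of the low 18S set, and the groups overlap for every gene shown.

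The promoters of Hes5 and Hey2, 2 effectors more often detected in Hes1-positive cells, are printed because both hold the letters that RBPJ is known to bind, GTGGGAA on the printed strand or TTCCCAC for the other strand, set in capitals. The sequences are the 250 bases before the gene start in RefSeq (build GRCm38.p6), at chr4:154960673-154960922 on the plus strand for Hes5 and at chr10:30842784-30843033 on the minus strand for Hey2, written 5′ to 3′ along the gene.
Hes5: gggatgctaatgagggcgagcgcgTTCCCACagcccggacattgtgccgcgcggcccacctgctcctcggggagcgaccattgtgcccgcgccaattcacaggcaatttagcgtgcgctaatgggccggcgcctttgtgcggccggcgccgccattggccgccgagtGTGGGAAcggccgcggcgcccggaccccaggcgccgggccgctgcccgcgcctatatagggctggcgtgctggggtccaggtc
Hey2: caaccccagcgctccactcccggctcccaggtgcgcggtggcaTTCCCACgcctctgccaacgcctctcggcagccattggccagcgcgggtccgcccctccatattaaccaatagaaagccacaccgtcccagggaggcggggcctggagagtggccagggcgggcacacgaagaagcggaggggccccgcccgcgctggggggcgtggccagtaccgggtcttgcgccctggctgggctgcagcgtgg
Hes5 holds the motif once on each strand, starting 83 and 226 bases before the gene start and not overlapping, and Hey2 once on the other strand, 207 bases before it. Of 32851 mouse promoter windows of this length, 5.42% hold at least 1 match and 0.161% hold at least 2. Windows of Nrarp and Hes6 hold no match to these letters. The window of Hes7, which was detected in no WT cell, holds 1 match on the other strand. A match is a description of the sequence, and 5 of the 10 genes of the list were matched to the table.

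Receptors and their partners differed less. Of 8 members measured, 4 passed the filter, of which 2 were higher and 2 lower, beside 58% of all genes higher. They had a median of 0.67 and none was past the fold. The median was 1.30 in the low 18S set, with the same 2 to 2 split. Notch1, the receptor that the floxed allele targets and that is intact in these cells, had log2 signals of 9.58, 13.53 and 14.29 (lowest, median, highest) in Hes1-positive cells, against 4.64, 12.84 and 14.55 in Hes1-negative cells. It was detected in 5 cells of each group, so most Hes1-negative cells held Notch1 transcript, and its difference of 1.83 was smaller than the SD of 3.79 among Hes1-negative cells. Notch2 was detected in 4 Hes1-positive and 2 Hes1-negative cells, with a difference of 1.71 over all cells and of 5.23 in the low 18S set. Rbpj and Snw1, which sit at the target genes with Notch, differed by -0.37 and -0.42 (Snw1 by -0.17 in the low 18S set) and were each detected in 4 and 5 cells. Neither Notch3 nor Notch4 was detected in any WT cell.

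Of 15 ligands and modifiers measured, 6 passed the filter, and 6 of these 6 were higher on average, beside 58% of all genes, with a median of 0.83 and none past the fold. In the low 18S set 4 of them were higher and 2 lower, with a median of 1.10. Dtx1, an intracellular Notch regulator and in some tissues a target of the pathway, was detected in 5 Hes1-positive and 4 Hes1-negative cells, with a difference of 2.37. Dll1, a ligand made by newborn neurons and by progenitors about to leave the cell cycle, was detected in 2 Hes1-positive cells and 1 Hes1-negative cell, with a difference of 2.03. Mib1, an enzyme that readies ligands in the sending cell, was detected in 2 Hes1-positive and 4 Hes1-negative cells, and differed by 0.61 over all cells and by -0.82 in the low 18S set. The proteases that cut Notch and the enzymes that ready it did not lean to a side over all cells. Of 8 measured, 4 passed the filter, 2 were higher and 2 lower, beside 58% of all genes higher, with a median of -0.29. In the low 18S set 1 was higher and 3 were lower, with a median of -1.11. Of these proteases and enzymes, Adam10, which makes the first ligand-driven cut, differed by 1.00 over all cells and Ncstn, a subunit of gamma-secretase, by -1.32. The other probe sets of Adam10 differed by -0.90, -1.46 and -0.50.

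Genes of other pathways that keep progenitors dividing were mostly higher in Hes1-positive cells on average. Of 10 Hedgehog pathway and response genes measured, 7 passed the filter, and 7 of these 7 were higher, beside 58% of all genes, and 1 was past the fold, beside 8.39%. The median was 2.61, and 3.64 in the low 18S set. Cell 9 went the other way, at a median of -1.57 against the Hes1-negative cells of the high set. Gli3, a transcription factor that carries the Hedgehog signal, was the 1 member past the fold, with log2 signals of 4.64, 11.18 and 12.24 (lowest, median, highest) in Hes1-positive cells, against 4.64, 4.99 and 9.97 in Hes1-negative cells. With 4 Hes1-positive cells and 1 Hes1-negative cell detected, the difference was 3.59. Gli2 was detected in 3 Hes1-positive cells and no Hes1-negative cell (difference 2.61), and Gas1, a co-receptor of Hedgehog, in 4 and 2 cells (difference 2.66). Smo, the membrane protein that passes the signal on, differed by 2.75 over all cells and by 0.56 in the low 18S set. Ptch1 was detected in 3 Hes1-positive and 2 Hes1-negative cells (difference 1.62). Gli1, detected in 1 Hes1-positive cell and no Hes1-negative cell, and Hhip, detected in no WT cell, did not pass the filter. Whether the response to Hedgehog was raised was not tested. The number of Hedgehog genes detected per cell was 1, 5 and 7 (lowest, median, highest) in Hes1-positive cells, against 1, 2 and 4 in Hes1-negative cells. Cells 2, 4 and 6 held 7 each, more than any Hes1-negative cell, and cells 3 and 5 held 3.

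Of 13 Id and BMP genes measured, 5 passed the filter, and 5 of these 5 were higher, beside 58% of all genes, with a median of 1.80 and none past the fold. The median was 2.82 in the low 18S set. Id1, a relative of Id3, was among the 5 with a difference of 0.12, below the 0.36 of all genes. Id3, which blocks proneural proteins from binding DNA, was detected in 6 of 6 Hes1-positive and 6 of 7 Hes1-negative cells, with means of 13.77 ± 0.95 and 11.74 ± 3.52. The spread was narrow in Hes1-positive cells, whose lowest value was 12.47, while cell 8 among the Hes1-negative cells was at the floor. Smad1, which carries BMP signals, was detected in 5 Hes1-positive and 3 Hes1-negative cells, with a difference of 2.50. Bmpr1a and Smad5 differed by 1.80 and 1.48.

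Of 14 Wnt components measured, 6 passed the filter, of which 4 were higher and 2 lower, beside 58% of all genes higher, with a median of 1.46 and 2 past the fold, beside 8.39%. In the low 18S set 5 were higher and 1 was lower, with a median of 3.08. Dkk3, a secreted relative of Wnt inhibitors that Müller glia are known to make, had log2 signals of 8.35, 13.68 and 14.07 in Hes1-positive cells, against 4.64, 8.42 and 13.70 in Hes1-negative cells (lowest, median, highest). With 5 and 3 cells detected, it differed by 3.77. Tcf7l2, a nuclear effector of Wnt, was detected in 3 Hes1-positive cells and no Hes1-negative cell and differed by 3.54. The receptors Fzd3 and Fzd5 differed by 1.54 and 1.38. In FGF and ERK signalling, 7 of 13 measured genes passed, 5 of them higher and 2 lower, beside 58% of all genes higher. Their median was 1.44, and the members did not move as a group. The median was 1.68 in the low 18S set. Dusp6, Spred1 and Etv4, which FGF signalling is known to induce, were each detected in 3 Hes1-positive cells and 1 Hes1-negative cell, with differences of 2.60, 2.94 and 1.90. Dusp4, a phosphatase that ERK also induces, was past the fold in the other direction, beside 3.38% of all genes past the fold lower. None of 6 Hes1-positive cells and 4 of 7 Hes1-negative cells (cells of both array sets) held it, with a difference of -4.00.

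Of 16 retinal progenitor factors measured, 13 passed the filter and 12 of these were higher, with a median of 1.03 and 2 past the fold, beside 8.39% of all genes. The 12 are read against 58% of all genes above 0, and they include Pax6 (0.011) and Six3 (0.0086), which lay near 0 over all cells. In the low 18S set Six3 differed by -1.98. Of the 12, Six3 was detected in 2 Hes1-positive and 4 Hes1-negative cells, Six6 in 3 and 5, and Nfia in 0 and 3. Six6 and Nfia differed by 0.28 and 0.44 over all cells, and Nfia by -0.076 in the low 18S set. The list's median was 2.05 in the low 18S set, with 10 higher and 3 lower. Rax, a homeobox gene that retinal progenitors and young Müller glia need, was detected in 6 of 6 Hes1-positive cells (exact 95% interval 54.1 to 100%) and in 2 of 7 Hes1-negative cells (28.6%, 3.67 to 71.0). Its log2 signals were 11.10, 11.69 and 14.78 in Hes1-positive cells, against 4.64, 8.55 and 12.30 in Hes1-negative cells (lowest, median, highest). The difference of 3.44 was larger than either SD (1.39 and 3.08), and the groups overlapped, since the highest Hes1-negative value lay above the Hes1-positive median. Nfix, a factor of late progenitors and Müller glia, was detected in 4 Hes1-positive cells and 1 Hes1-negative cell, with medians of 11.58 and 4.64 and a difference of 5.41. Meis1 was detected in 4 and 1 cells (difference 2.82) and Sox2, a factor that keeps progenitors and Müller glia in their state, in 5 and 4 cells (difference 2.72). Meis2, also made by amacrine cells, was the member with a lower mean over all cells, detected in 1 Hes1-positive and 5 Hes1-negative cells with a difference of -2.39.

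Of 21 genes of Müller and radial glia measured besides Hes1, 15 passed the filter and 13 of these were higher, with a median of 2.17 and 5 past the fold higher against 1 lower, beside 58% of all genes above 0, 8.39% past the fold higher and 3.38% lower. In the low 18S set the median was 1.51 with the same 13 to 2 split. The number detected per cell was 6, 12 and 15 (lowest, median, highest) in Hes1-positive cells, against 6, 10 and 11 in Hes1-negative cells. Cell 9 was the Hes1-positive cell with 6, and the other 5 held at least 11. Rlbp1, the retinoid carrier of Müller glia, had log2 signals of 7.92, 13.08 and 13.33 in Hes1-positive cells, against 4.64, 6.64 and 12.39 in Hes1-negative cells, and it was detected in 5 and 3 cells (difference 4.37). Itm2b, a membrane protein, was detected in 5 Hes1-positive and 2 Hes1-negative cells (difference 4.47), and Spon1, a matrix protein, in 4 and 1 cells (difference 4.01). The other probe sets of Spon1 differed by -1.24, -0.39 and -0.092. Vim, a lower member of the list, was detected in 5 Hes1-positive and 7 Hes1-negative cells (difference -1.22, and 0.11 in the low 18S set). Gpr37, an orphan receptor, was the other lower member and the 1 past the fold. Its transcript was found in 2 of 6 Hes1-positive cells and in 7 of 7 Hes1-negative cells, with log2 medians of 7.26 in Hes1-positive and 12.57 in Hes1-negative cells and a difference of -4.39. Other Müller genes of the list did not separate the groups by detection. Glul, the glutamine synthetase of Müller glia, was detected in 5 cells of each group (difference 1.51, and 0.62 in the low 18S set) and Car2, a carbonic anhydrase, in 6 Hes1-positive and 5 Hes1-negative cells (difference 2.17, and 1.38 in the low 18S set), while Aqp4 and Kcnj10 were detected in no WT cell.

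**Figure D3:**
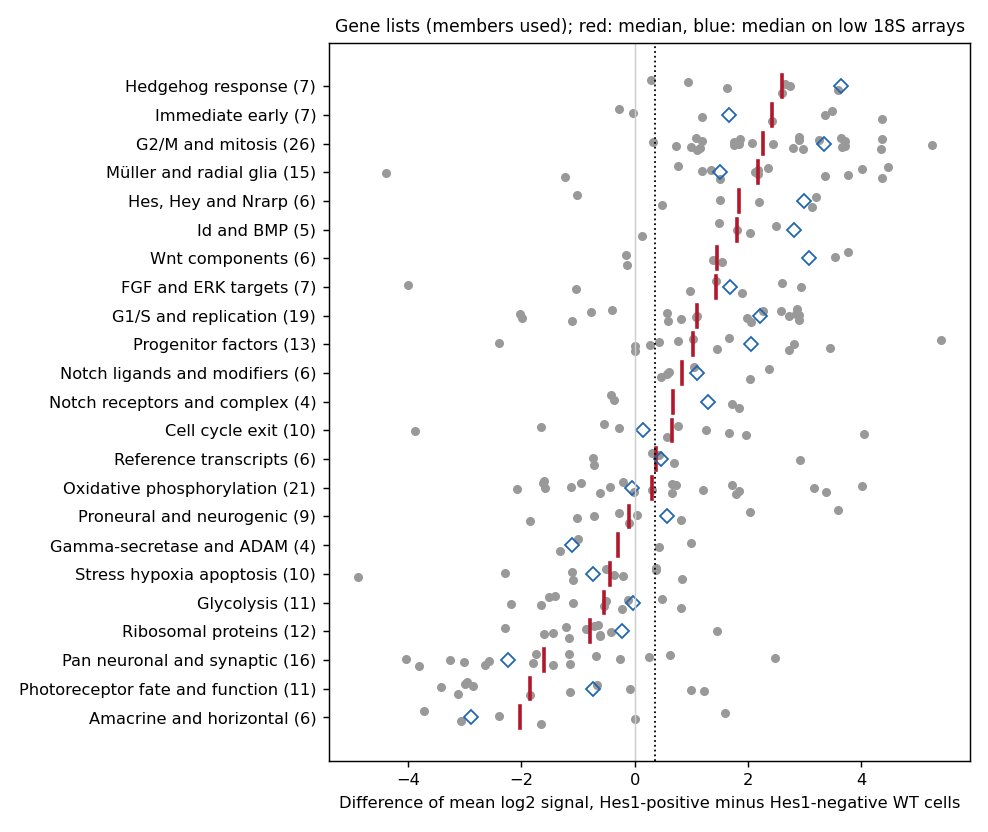
Difference of mean log2 signal (Hes1-positive minus Hes1-negative WT cells) for each member of 23 gene lists that passed the detection filter (grey points, number in brackets). Red bars are list medians, blue diamonds the medians in the low 18S set, and the dotted line the median of all genes, 0.36. Hedgehog, G2/M and glial lists lie to the right and amacrine, photoreceptor and neuronal lists to the left.

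Genes of the G2 and M phases of the cell cycle were higher on average in Hes1-positive cells. Of 29 measured, 26 passed the filter, 26 of these 26 were higher, and 8 were past the fold, with a median of 2.26, beside 58% of all genes above 0 and 8.39% past the fold higher. Of the same 26, 26 were also higher in the low 18S set (median 3.34), beside 55.8% of all genes. Cell 9 had 9 higher and 17 lower than the Hes1-negative cells of the high set, beside 39.2% of all genes higher in that comparison, whose median over all genes was -0.97. The mean log2 signal over these genes was 11.47 ± 2.34 in Hes1-positive cells and 9.02 ± 2.38 in Hes1-negative cells (SD, n = 6 and 7), a gap about as wide as the SDs. Per cell, 5, 22 and 27 of the genes were detected (lowest, median, highest) in Hes1-positive cells, against 3, 13 and 20 in Hes1-negative cells. Cells 2, 3 and 5 held more than any Hes1-negative cell, and cell 9, with 5, and cell 6, with 11, lay inside the range of the Hes1-negative cells.

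Bub1, a kinase of the spindle checkpoint, had log2 signals of 8.10, 11.86 and 13.59 in Hes1-positive cells, against 4.64, 4.64 and 9.60 in Hes1-negative cells (lowest, median, highest), with 4 and 1 cells detected and a difference of 5.25. Cdk1, the kinase that starts mitosis, was detected in 5 Hes1-positive and 2 Hes1-negative cells with a difference of 4.35. Ndc80, which ties chromosomes to the spindle, was detected in 3 Hes1-positive cells and no Hes1-negative cell, with a difference of 4.36. Hes1-negative cells were not without cycling transcripts. Ube2c, which helps break down mitotic proteins, was detected in 6 Hes1-positive and 4 Hes1-negative cells (difference 3.72). Mki67, the general marker of cycling cells and picked here with its values in view, was found in 5 of 6 Hes1-positive and 6 of 7 Hes1-negative cells, with a difference of 1.11.

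Of 28 G1 and S phase genes measured, 19 passed the filter and 14 of these were higher, beside 58% of all genes, with a median of 1.09 and none past the fold in either direction. In the low 18S set 15 were higher and 4 lower, with a median of 2.21. Uhrf1, which helps copy DNA methylation at the replication fork, was detected in 5 Hes1-positive and 2 Hes1-negative cells, and cells 8 and 11 were the 2. Its difference was 2.85 over all cells and 7.01 in the low 18S set. Fen1, a nuclease that trims replication fragments, was detected in 5 and 2 cells (difference 2.91), Mcm5, part of the replication helicase, in 3 and 1 cells (difference 2.90) and Gmnn, which blocks a new round of replication, in 5 and 3 cells (difference 2.86, and 1.07 in the low 18S set). Among 15 genes of cell cycle exit measured, 10 passed the filter and 6 of these were higher, a share near the 58% of all genes, with a median of 0.67. The median was 0.15 in the low 18S set. Cdkn2c, an inhibitor of G1 kinases, was the 1 member past the fold higher, beside 8.39% of all genes, with 4 and 1 cells and a difference of 4.05. Gadd45g, a growth arrest gene of newborn neurons, was the 1 member past the fold lower, beside 3.38% of all genes. No Hes1-positive cell and 3 Hes1-negative cells held it, with a difference of -3.88.

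Proneural and neurogenic genes form a list of which Hes proteins are known to repress only some members, and repression was not tested. Of 17 measured, 9 passed the filter, 4 of them higher and 5 lower, beside 58% of all genes higher. The median was -0.09, beside 0.36 over all genes. In the low 18S set 5 were higher and 4 lower, with a median of 0.56. Neurod1, a factor of young photoreceptors and amacrine cells, was detected in 3 of 6 Hes1-positive and 6 of 7 Hes1-negative cells, with log2 means of 10.61 ± 4.00 and 12.47 ± 3.19. Its difference was -1.85 over all cells and -4.01 in the low 18S set, and cell 9 was the brightest cell of all at 16.16. Foxn4, a factor of progenitors that can make amacrine and horizontal cells, was the 1 member past the fold, beside 8.39% of all genes higher. It had 4 and 2 cells and a difference of 3.60. In the high set Foxn4 differed by -2.69.

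Transcripts of differentiating neurons lay mostly on the Hes1-negative side. Of 23 general neuronal and synaptic genes measured, 16 passed the filter, 13 were lower in Hes1-positive cells and 3 higher, with a median of -1.60, and 4 were past the fold lower, against 42% of all genes below 0 and 3.38% past the fold lower. The 3 higher were Vamp2, detected in 5 Hes1-positive and 4 Hes1-negative cells (difference 2.48, and 1.52 in the low 18S set), Nlgn2 (0.63, and -2.90) and Cplx1 (0.26, and 0.86). The median of the list was -2.23 in the low 18S set, with the same 13 to 3 split. With the Hes1 threshold moved to percentile 80 or 95, the list median was -0.077 or 0.074. Per cell, 2, 3.5 and 7 genes of the list were detected (lowest, median, highest) in Hes1-positive cells, against 4, 8 and 10 in Hes1-negative cells. In the low 18S set the groups did not overlap in this number, with 2 to 7 in Hes1-positive cells and 8 to 10 in Hes1-negative cells.

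Tubb3, the neuronal tubulin, had log2 signals of 4.64, 5.08 and 12.79 in Hes1-positive cells, against 4.64, 11.25 and 15.64 in Hes1-negative cells (lowest, median, highest), with 1 and 4 cells detected. Its difference of -3.80 lay within the SD of 4.76 among Hes1-negative cells. Snap25, part of the machinery of transmitter release, was detected in 1 Hes1-positive and 5 Hes1-negative cells, with a difference of -3.26 that was larger than either SD (2.89 and 2.91), as held for 2.26% of all genes lower in Hes1-positive cells. Syp, a protein of synaptic vesicles, was near the floor in every Hes1-positive cell, with a highest value of 5.72. Detected in 3 Hes1-negative cells, it differed by -4.03, and Mapt, the axonal protein tau, likewise had 0 and 3 cells and differed by -3.01. The other probe sets of Mapt differed by -0.040, -1.35 and 2.47, the last detected in 1 Hes1-positive cell and no Hes1-negative cell.

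Of 27 photoreceptor genes measured, 11 passed the filter and 9 of these were lower, beside 42% of all genes, with a median of -1.85 and 2 past the fold lower, beside 3.38%, and these values depended on the array set. In the low 18S set the median was -0.74, and in the high set cell 9 had 8 genes of the list detected and a median difference of 0.35 from the Hes1-negative cells. With the Hes1 threshold moved to percentile 80 or 95, the list median turned sign, at 3.10 or 0.18. Per cell, 2, 3 and 8 were detected in Hes1-positive cells, against 2, 8 and 13 in Hes1-negative cells. The high counts in the Hes1-negative group were those of cells 10, 11, 12 and 13, while cells 1, 7 and 8 had 2 or 3, no more than most Hes1-positive cells. Rom1, a protein of the rod outer segment, was detected in no Hes1-positive cell and in 4 Hes1-negative cells (difference -3.42, and -1.54 in the low 18S set). Crx, which switches on photoreceptor genes, was detected in 2 and 4 cells (difference -3.12), Gnb3, of cone and bipolar signalling, in 1 and 3 cells (difference -2.99), and Ccdc136 in 2 and 5 cells (difference -2.97). Ccdc136 turned sign in the low 18S set, at 0.31, with 2 Hes1-positive cells and 1 Hes1-negative cell detected there. The upstream factors Otx2 and Nrl, picked with their values in view, were detected in 3 and 4 Hes1-positive cells and in 4 and 5 Hes1-negative cells. They differed by -1.85 and -1.15 (Nrl by -0.59 in the low 18S set), less than their SDs of 3.99 to 4.76, so factors of photoreceptor commitment were found in cells of both groups.

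**Figure D4:**
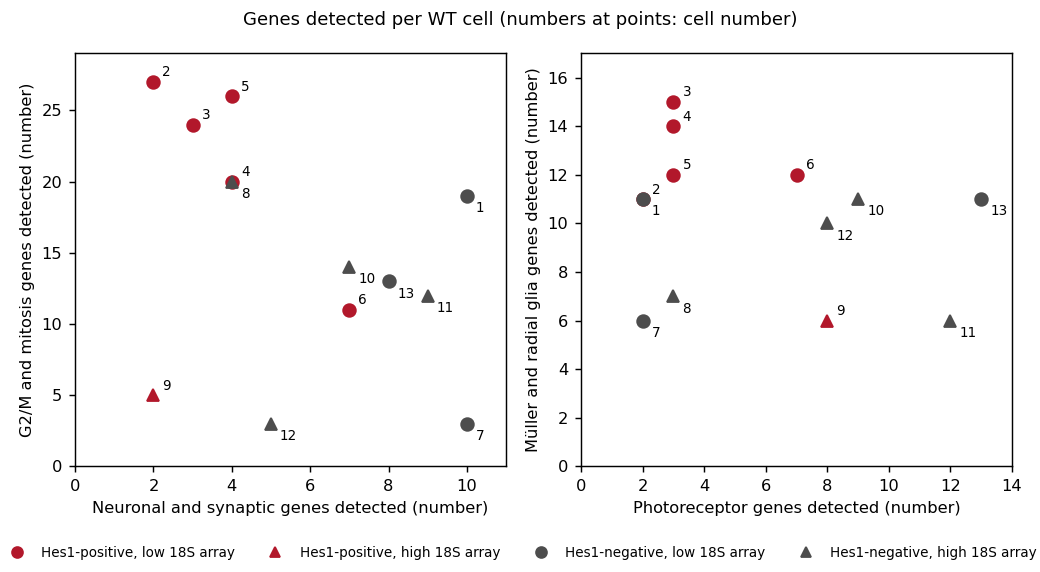
Number of listed genes detected in each WT cell: G2/M genes against neuronal and synaptic genes (left) and glial genes against photoreceptor genes (right), Hes1-positive cells in red, Hes1-negative cells in grey, triangles for high 18S arrays. Cells 4 and 8 coincide on the left and cells 2 and 1 on the right. Cells 2 to 5 sit at 20 to 27 G2/M genes with 2 to 4 neuronal genes, and cells 1, 7, 13 and 11 hold 8 to 10 neuronal genes.

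Of 17 amacrine and horizontal cell genes measured, 6 passed the filter, 4 were lower and 2 higher, beside 42% of all genes lower, with 2 past the fold lower, beside 3.38%. The median was -2.02, and -2.90 in the low 18S set. With the Hes1 threshold moved to percentile 95, the list median turned sign, at 0.78. Barhl2, a factor of amacrine cells, was detected in no Hes1-positive cell and in 4 Hes1-negative cells, with log2 medians of 5.09 and 10.74 and a difference of -3.72. Gad2, which makes the transmitter GABA, was detected in no Hes1-positive cell and in 3 Hes1-negative cells and differed by -3.07. The other probe set of Gad2 was detected in 1 Hes1-positive cell and no Hes1-negative cell and differed by -0.61. Tfap2b, another amacrine factor, had 1 and 4 cells and differed by -1.65. Only 2 bipolar genes passed the filter, with a median of 1.41 (Irx5 at 1.94 and Prdm8 at 0.88), and only 2 ganglion cell genes, with a median of 0.23 (Gap43 at 1.32 and Nefm at -0.85, or 1.02 in the low 18S set), too few for a reading. The medians in the low 18S set were 2.32 for bipolar and 2.53 for ganglion cell genes.

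Immediate early genes, which cells switch on within minutes of a stimulus or of dissociation, were higher in 5 of the 7 that passed the filter, of 20 measured, with a median of 2.42 and 3 past the fold, beside 58% of all genes above 0 and 8.39% past the fold. Leaving out cell 9 gave a median of 3.69, and low 18S arrays alone gave 1.66. Jund was detected in 6 Hes1-positive and 3 Hes1-negative cells, with a difference of 4.37 over all cells and of 1.14 in the low 18S set. Dusp1 and Ier2 differed by 3.48 and 3.37, of which Ier2 by 0.80 in the low 18S set, and Fos, detected in 5 cells of each group, by 2.42.

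Markers of other cell types that a retina could hold were scarce in both groups. No gene of 13 for pigment epithelium and lens was detected in any WT cell, and the microglia, astrocyte and oligodendrocyte, and erythroid lists had 2, 3 and 1 detections in all 13 cells. Of 11 endothelial and mural genes, Kdr was detected in 5 Hes1-positive and 4 Hes1-negative cells (difference 3.23), while Pecam1, Cdh5, Cldn5 and Tek were detected in none.

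The 12 highest and 12 lowest differences were taken over all genes detected in at least 4 WT cells, and none of them is in a gene list. The highest was Rnf139, a ubiquitin ligase of the endoplasmic reticulum, with log2 signals of 11.33, 12.78 and 13.80 in Hes1-positive cells, against 4.64, 4.70 and 8.16 in Hes1-negative cells (lowest, median, highest). It was detected in 6 of 6 Hes1-positive and 0 of 7 Hes1-negative cells, the groups did not overlap, and the difference was 7.23. Against the detection thresholds of the Hes1-negative arrays, its mean was at least 7.38-fold higher in Hes1-positive cells. It was not a transcript of Hes1-positive cells alone, since it was detected in 6 of 13 N1-CKO cells, 12 of which were Hes1-negative.

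Rad51ap1, which helps repair broken DNA, and Ncaph, a condensin subunit that packs mitotic chromosomes, were each detected in 4 Hes1-positive cells and no Hes1-negative cell, with differences of 6.20 and 5.67. Pttg1ip, which binds the mitotic protein securin, was detected in 5 and 0 cells without overlap (difference 5.94). Prelp, a matrix protein, was detected in 6 Hes1-positive and 2 Hes1-negative cells (difference 5.49) and in 1 of 13 N1-CKO cells, although its other probe set differed by 2.44. The others were Nxt1 (6.27), Antkmt (5.94), Daam1 (5.81, with -0.49 and -1.77 by its other probe sets), Slc30a1 (5.67), Cdc5l (5.61, with -0.39 by its other probe set), Rexo5 (5.59) and Zfp622 (5.45).

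Among the 12 lowest, Hars, the histidine tRNA synthetase, had log2 signals of 4.64, 5.26 and 11.83 in Hes1-positive cells, against 12.11, 13.75 and 15.49 in Hes1-negative cells (lowest, median, highest). It was detected in 1 and 7 cells, the groups did not overlap, and the difference was -6.90. Vps72, a subunit of chromatin complexes, was detected in 0 of 6 Hes1-positive and 7 of 7 Hes1-negative cells, with a difference of -6.11. Chgb, a protein of secretory granules in neurons and endocrine cells, was detected in 1 Hes1-positive cell, cell 9, and in 5 Hes1-negative cells, with a difference of -5.52. Npdc1, a gene linked to neuronal differentiation, was detected in 0 and 5 cells (difference -5.45), and both it and Chgb were detected in 10 of 13 N1-CKO cells. The others were Tacc2 (-6.94), Btrc (-6.34, with -0.98 to 1.16 by its other probe sets), Gnl2 (-6.30), Homer3 (-5.62), Malat1 (-5.34, with -5.91 to -0.17 by its other 6 probe sets), Hmox2 (-5.22), Abl2 (-5.08) and Ece1 (-5.07). On low 18S arrays alone, Btrc differed by -2.66, Homer3 by -3.47 and Malat1 by -2.08.

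**Figure D5:**
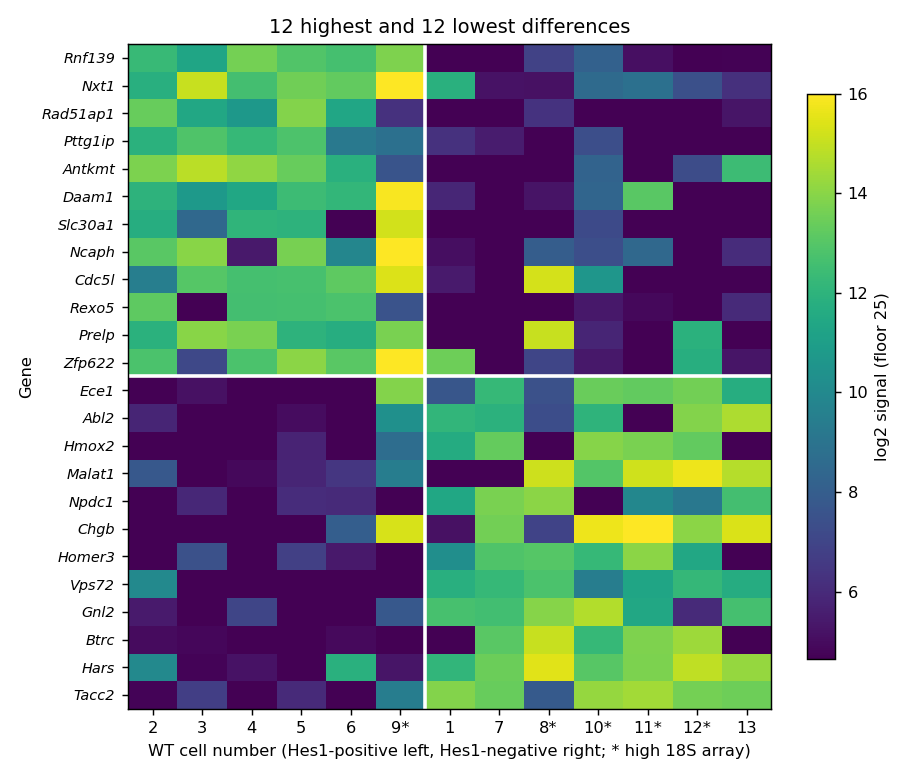
Log2 signal (floor 25) of the 12 highest and the 12 lowest genes (above and below the white line) in each WT cell, Hes1-positive cells left and Hes1-negative cells right of the vertical line, asterisks for high 18S arrays, with colours ending at 16. Rnf139 is bright in all 6 Hes1-positive cells and Hars in all 7 Hes1-negative cells. Cell 9 is bright for several genes of both blocks, such as Zfp622 and Chgb.

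Besides Hes1, 4 of the 4908 genes (0.0815%) were detected in every Hes1-positive cell and in at most 1 Hes1-negative cell: Rnf139, Nxt1, Daam1 and Dennd5a. In the opposite direction 3 (0.0611%) were detected in every Hes1-negative cell and in at most 1 Hes1-positive cell: Hars, Vps72 and Jkamp. Dennd5a differed by 4.92 over all cells and by 1.77 in the low 18S set. The log2 signals of the groups did not overlap for 3 genes higher in Hes1-positive cells (0.0611%), Rnf139, Pttg1ip and Efhd2, and for 3 lower (0.0611%), Hars, Pomgnt1 and Atp5b. Efhd2, Pomgnt1 and Atp5b lie outside the naming rule and were picked for this lack of overlap. Id1, Pax6, Six3, Six6, Nfia, Hes7, Glul, Car2, Vim, Gli1, Hhip, Ptch1, Cdt1, Pcna, Mcm3, Vamp2, Nlgn2 and Cplx1 were likewise named with their values in view. Atp5b, a subunit of the mitochondrial ATP synthase, was detected in all 13 cells, with means of 12.28 ± 0.66 in Hes1-positive and 13.90 ± 0.53 in Hes1-negative cells and a difference of -1.61. None of the 6 is a member of the Notch lists.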

How the data were processed

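Per the submitters' processing notes, the authors made the deposited values, 1 intensity per probe set and cell on a linear scale, with MAS5. The sources used here give neither its version nor its settings. With the top and bottom 2% trimmed, every array averages 500.0, so total RNA per cell cannot be read. Per the labels' protocols, cDNA was primed with oligo dT and amplified by PCR, so signal comes from transcript 3' ends.

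Of 45101 probe sets, 64 controls, 932 with several gene symbols and 9160 unnamed here were left out of gene values, leaving 18193 genes, each read from its brightest probe set by mean log2 over the 26 cells. Of 133 genes checked for this, 31 had another probe set of opposite sign, none detected in over 3 cells. Signals below 25 were raised to 25 before log2. Detection means the 90th percentile of a cell's own array. For a gene with 0 detected cells on the dim side, a bound sets the other group's mean log2 against the mean log2 detection threshold of the dim group's arrays. The array sets were split at the largest gap in log2 18S signal.

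No test was run, because cells are not replicates. Depth is not defined for arrays; their number limits the precision. Exact intervals are Clopper-Pearson and cover counting error only. The members and the 30 gene lists (435 of 475 genes measured) were chosen with earlier results of these data known. Named by rule were Notch list members detected in at least 2 cells, the extreme 12 differences each way (4 or more WT cells with the gene, and a share of detected cells that moves the same way), genes nearly all-or-none between groups, and up to 4 members of each other list. Scripts, tested on simulated data, used Python 3.11.15, numpy 2.4.6, pandas 2.3.3 and scipy 1.17.1.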

Additional observations from a re-analysis of the deposited data

Results flagged for a closer look

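In groups of 6 and 7 cells, a value was picked out when its gap to the nearest other cell was an unusually large part of the group's range (Dixon's 95% limit). This was so for 4 of 56 groups of values looked at, and chance alone picks out about 1 in 20.

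Cell 9 gave 3 of the 4 among Hes1-positive cells. Its 18S control signal was 4.46e+04, against at most 1238 in the other 5. It had 2570 probe sets at or above the common signal, against at least 4823 in the others. Its mean log2 signal over the progenitor factors was 9.403, the lowest of the Hes1-positive cells, whose highest was 12.24.

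Among Hes1-negative cells, cell 7 had a mean log2 signal of 7.767 over the Notch receptors and complex genes, with a highest of 11.03 in its group, and neither Notch1 nor Hes5 was detected in it.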

How the results depend on the processing

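No paired analysis was possible because the groups come from Hes1 signal within the WT cells, whose numbers name cells only, and the result comes from no test. The counts past the fold, 412 higher and 166 lower, moved by over 1.5 times under these settings, given as higher then lower: a floor of 100 (176 and 61), the mean over all probe sets (182 and 79), medians over cells (1037 and 435), detection in at least 6 cells (177 and 60), a Hes1 threshold at percentile 80 (984 and 363, 11 against 2 cells) or 95 (623 and 431, 2 against 11 cells), low 18S arrays (755 and 391) and high 18S arrays (835 and 1310, cell 9 against 4). The other settings (a floor of 1, quantile normalization, no _x or _s probe sets, no filter, Gapdh ratio at most 3) kept them within 1.5 times. Leaving out 1 cell gave 395 to 571 higher, most without cell 9, and 155 to 208 lower.

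The list medians given next are those of size 1 or more that turned sign, and those that moved by over 1 SD between cells. With the threshold at percentile 80, FGF and ERK had -1.42, photoreceptor 3.10, ligands and modifiers -1.32, progenitor 3.50, glia 3.44, G1/S 3.63, neuronal -0.077, immediate early 0.71, glycolysis 0.84, oxidative phosphorylation -0.35 and ribosomal 0.11. At percentile 95, FGF and ERK had -0.034, photoreceptor 0.18, amacrine 0.78, neuronal 0.074, G1/S 3.90 and immediate early 0.75. On high 18S arrays, where the median of all genes was -0.97 against 0.36 over all cells, receptors had -1.17, ligands and modifiers -1.02, Hes and Hey -2.66, Id and BMP -0.92, Hedgehog -1.57, FGF and ERK -1.95, Wnt -2.28, progenitor -0.28, glia 0.93, G1/S -2.96, G2/M -1.75, cell cycle exit -0.54, proneural 1.56, photoreceptor 0.35, immediate early 0.17, stress -1.79, glycolysis -3.67 and reference -1.05. Unfiltered, gamma-secretase and ADAM had 0.71, amacrine -0.32 and immediate early 0.46, and with the mean over all probe sets Id and BMP had 0.29. Leaving out 1 cell, immediate early ranged from 1.50 to 3.69.

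Of 62 named genes past the fold, sign turned at percentile 80 for Cdc5l (-0.28), Cox5a (-4.09), Crx (4.45), Dusp1 (-1.13), Foxn4 (-0.23), Rom1 (3.50) and Snap25 (1.48), and at percentile 95 for Crx (0.23), Ncaph (-1.56) and Ndc80 (-0.28). On high 18S arrays it turned for Abl2 (0.88), Cdk1 (-2.67), Cdkn2c (-0.42), Chgb (1.95), Dkk3 (-1.89), Dusp1 (-1.56), Ece1 (1.96), Foxn4 (-2.69), Gli3 (-1.57), Hes5 (-2.86), Kdr (-3.004), Ndc80 (-0.23), Rlbp1 (-0.32), Tcf7l2 (-2.58) and Uqcrc2 (-1.85). No sign turned when 1 cell was left out. The causes were not tested. With 6 and 7 cells of unnamed animals, and a signal at the floor in many of them, the number of arrays limits every value.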

Other observations

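Median differences of the housekeeping groups of genes ran from -0.79 to 0.38, beside 0.36 over all genes. Of 12 ribosomal protein genes that passed the detection filter, 11 were lower in Hes1-positive cells, beside 42% of all genes. Their median difference was -0.79, and -0.23 in the low 18S set. Rpl10a and Rpl19 were each detected in 5 of 6 Hes1-positive and 7 of 7 Hes1-negative cells, and cell 9 had log2 signals of 4.64 and 8.60 for them. Of 11 glycolysis genes, 9 were lower, beside 42% of all genes, with a median of -0.54. In the low 18S set 5 were higher and 6 lower, with a median of -0.034. Aldoa, a glycolytic enzyme, was at the floor in cell 9 and at 13.27 or more in every Hes1-negative cell, with a difference of -2.18 over all cells and of -0.25 in the low 18S set. The 21 genes of oxidative phosphorylation had a median of 0.31, and of -0.052 in the low 18S set. Past the fold higher were 3, beside 8.39% of all genes: Cox5a (4.01), Ndufs3 (3.39) and Uqcrc2 (3.17). Of the 6 reference transcripts, 4 were higher, beside 58% of all genes, with a median of 0.38, close to the 0.36 of all genes. In the low 18S set 3 were higher and 3 lower, with a median of 0.46.

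Of 10 stress, hypoxia and apoptosis genes, 7 were lower, beside 42% of all genes, with a median of -0.44. The median was -0.73 in the low 18S set. Dnajb1, a chaperone partner induced by heat shock, was detected in 1 Hes1-positive and 5 Hes1-negative cells, with log2 medians of 4.74 and 12.21. Its difference of -4.89 was past the fold, while its other probe set differed by 0.80, with 2 and 1 cells detected. Ddit4, induced by stress and low oxygen, was detected in 1 and 4 cells with a difference of -2.30.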
